A study of Homo sapiens with 4 samples.

Results

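Translation initiation factors are the proteins that bring an mRNA, the initiator tRNA, and the ribosomal subunits together at a start codon. The genes described here were all protein-coding genes whose symbol starts with EIF followed by a digit, without the EIF2AK kinases, EIF1AX, EIF1AY, and pseudogenes, and 50 of the 58243 genes in the files met this rule. They were measured in 293T cells, a human embryonic kidney line that carries the SV40 large T antigen, by sequencing of poly(A) RNA. The cells of all 4 conditions were the same line. They received either a control RNA or a mimic of human miR-1, miR-122, or miR-124, and were harvested 48 h after transfection according to the labels, although the study's methods give a shorter time. A mimic is a synthetic duplex in which 1 strand is the mature miRNA. Each condition has a single library, so that differences between conditions have no replicate check and none was tested.

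In the usual pathway, eIF2 carries the initiator tRNA in a GTP-bound form to the small ribosomal subunit, which also holds eIF1, eIF1A, eIF3, and eIF5. The eIF4 proteins recognize the cap, unwind the 5′ UTR, and connect the mRNA to eIF3. After start codon selection eIF5B promotes joining of the large subunit, and eIF2B reloads eIF2 with GTP. A miRNA in a complex with an Argonaute protein pairs through its seed, bases 2 to 8, with sites that lie mostly in 3′ UTRs, and lowers the level or the translation of the mRNA.

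The seeds and their matches are shown because EIF4E was a miR-1 reporter target in the study and because a member with a seed match can be read against members without one. The mature sequences of RefSeq on GRCh38.p14, with the seed in capitals, lie at chr20:62554351-62554372 on the plus strand for miR-1 and at chr18:58451088-58451109 on the plus strand for miR-122.
hsa-miR-1-3p: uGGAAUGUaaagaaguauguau
hsa-miR-122-5p: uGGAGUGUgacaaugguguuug

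The 3′ UTR matches shown next are those of EIF4E, of the only member with an 8mer for each miRNA (EIF5 and EIF4G3), and of EIF2S3 and EIF6, whose ratios in the miR-1 library lie on either side of 1. Each is a window of 22 bases of GRCh38 read in the direction of the mRNA, with the match in capitals. ACATTCC pairs with the miR-1 seed and ACACTCC with the miR-122 seed, and an 8mer adds an A after the match. The EIF4E site is at chr4:98880232-98880253 on the minus strand, the EIF5 site at chr14:103344112-103344133 on the plus strand, the EIF2S3 site at chrX:24077013-24077034 on the plus strand, and the EIF6 site at chr20:35279133-35279154 on the minus strand. The EIF4G3 site, at chr1:20941699-20941720 on the minus strand, is in the 3′ UTR of a transcript other than the Ensembl canonical one.
EIF4E, miR-1: tgtaacatcataattACATTCC
EIF5, miR-1: cttgattcatagtgACATTCCA
EIF2S3, miR-1: tttggcagaagttaaACATTCC
EIF6, miR-1: tggccaaccttctccACATTCC
EIF4G3, miR-122: agcttctcctcctcACACTCCA

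The deposited unit was FPKM. Whole reads could be recovered from it for 99.4% of the 32358 genes above 0. The annotated gene span, introns included, gave them for 18302 genes, and another whole length for 13861. FPKM was therefore read as reads per kilobase of a gene length with introns, per 1000000 reads of the library. The divisors stood for 9452232 reads (miR-1), 6624306 (control RNA), 6465436 (miR-124), and 5887055 (miR-122). A ratio is the FPKM with a mimic divided by that with the control RNA, and its 95% interval (Clopper-Pearson, from the recovered reads) covers counting error only. A ratio was read for genes above an FPKM of 0.004 in both libraries with at least 200 reads over the 4 libraries, which 12515 genes reached, and was called low at 0.8 or below and high at the inverse of 0.8 or above. The 5 genes read as markers of the line (PAX2, PAX8, LHX1, NEFM, and NEFL) summed to an FPKM of 29.6 to 35.6 per library, most of it from NEFL, while PAX8 did not exceed 0.0108. The summed reads were 0 to 4 for 3 blood genes, 2 to 6 for 4 liver genes, 28 to 67 for 6 muscle genes, 147 to 187 for 4 neuron genes, and 462 to 654 for 4 fibroblast genes, of which COL1A1 gave most.

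Of the 50 members, 47 reached 200 reads. The exceptions were EIF4A1, EIF4E1B, and EIF4EBP3. EIF4E1B, an eIF4E form best known from oocytes, had 2 reads, both in the miR-122 library. EIF4EBP3 had 3 reads with the control RNA, 4 with miR-1, 0 with miR-122, and 1 in the miR-124 library. EIF4A1, the gene of the main cap-dependent RNA helicase and part of the check of the group, had 29 reads with the control RNA, 30 with miR-1, 18 with miR-122, and 33 in the miR-124 library. Its paralog EIF4A2 had 1952 reads with the control RNA, and EIF3A, the scaffold subunit of eIF3, had 13079 over the 4 libraries. In GENCODE release 44, 100% of the exon bases of EIF4A1 and 73.2% of those of EIF4EBP3 lie in exons of other genes on the same strand, among them the readthrough genes SENP3-EIF4A1 and ANKHD1-EIF4EBP3, which had at most 2 and 14 reads in a library. EEF1G, an elongation factor gene outside the rule, was listed at 0 in all libraries and shares 99.5% of its exon bases with a gene on the same strand. How shared reads were counted is not given in the sources used here, so no level is read for EIF4A1 or EIF4EBP3, and the low counts are not a measure of expression.

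Levels between genes were compared as recovered reads per kilobase of the Ensembl canonical transcript per 1000000 reads, since FPKM falls with intron length. In the control RNA library the 47 members ran from 2.21 (EIF5A2) to 572 (EIF5A), with a median of 36.8. EIF5A, the hypusine-modified factor that relieves stalled elongation, stood apart from EIF2S3, the GTP-binding subunit of eIF2, at 235. EIF4H, a cofactor of the eIF4A helicase, was at 197 and EIF3G at 187. The cap-binding protein gene EIF4E was at 15.6, below its paralog EIF4E2 at 98.0 and above EIF4E3 at 3.03. All these levels depend on the transcript that stands for a gene. The canonical transcript of EIF4E2 has 967 bases, whereas its longest annotated 3′ UTR alone has 2775. The EIF4E level leaves out the reads assigned to its pseudogenes, which are given further on. The scaffold genes EIF4G1 and EIF4G2 were at 167 and 151, and EIF4G3 was at 28.1. The subunits of eIF3, which meet in a single complex, were spread from 7.10 (EIF3CL) and 9.18 (EIF3C) to 187 (EIF3G), with a median of 47.5. The pair EIF3C and EIF3CL are near-identical copies on chromosome 16 whose reads an aligner may split or drop, so that their levels are uncertain. In the plot of levels by member the 4 libraries of most genes sit close together, while the group spans a far wider range.

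**Figure D1:**
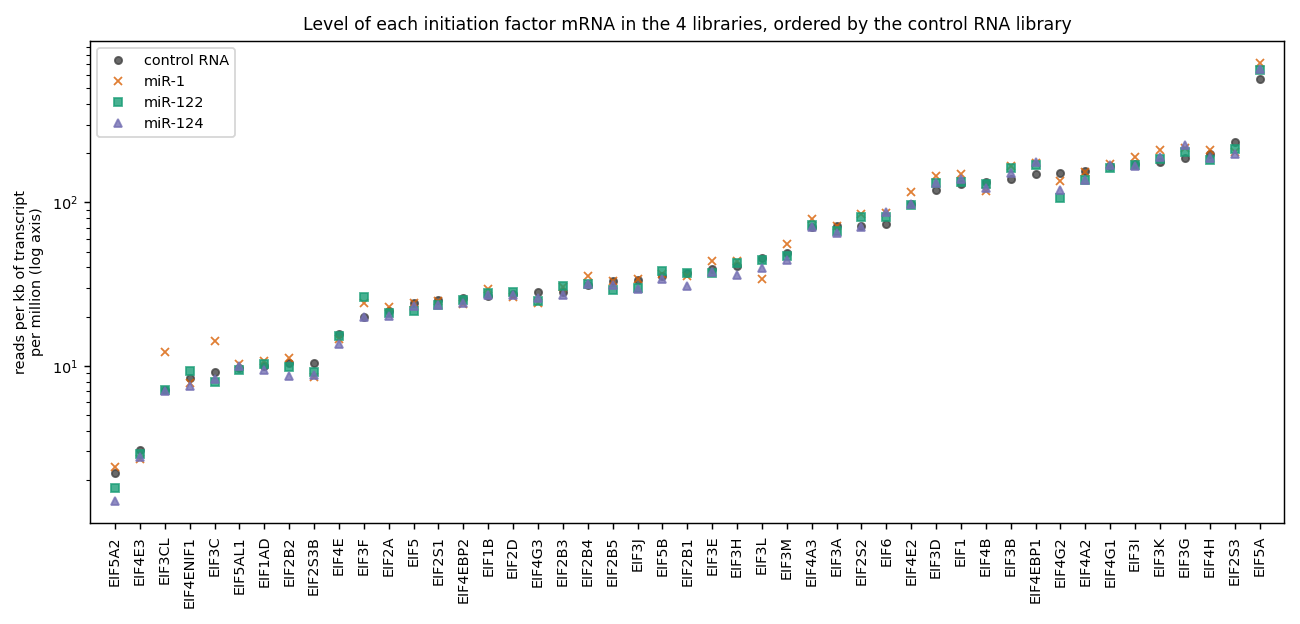
Level of each of the 47 members in the 4 libraries, as recovered reads per kilobase of canonical transcript per 1000000 reads on a log axis, with genes ordered by the control RNA library. EIF5A2 is lowest at 2.21 and EIF5A highest at 572 with the control RNA, and the miR-1 marker of EIF3C and EIF3CL stands above the other 3.

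Few members were called in any comparison. In the miR-1 library 1 of 47 members was low (EIF3L), where 18.3% of all genes were, and 3 were high (EIF5A, EIF3C, and EIF3CL), where 7.31% of all genes were. In the miR-122 library 1 member was low (EIF4G2; background 12.3%) and 1 was high (EIF3F; background 7.87%). In the miR-124 library 2 members were low (EIF4G2 and EIF5A2; background 16.3%) and 0 were high (background 10.2%). The shares of low members, 2.13%, 2.13%, and 4.26%, were under the background in each library. However, 39 of the 47 members had at least 1000 reads, beside 6473 of 12515 genes. Counting error carries shallow genes past these limits more often, and a background matched for depth was not computed for these calls. The values of the called members are given below by role.

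The members lay above the genome-wide median with miR-1 and slightly below it with the other mimics. Their median log2 ratio was 0.09 with miR-1, -0.03 with miR-122, and -0.07 in the miR-124 library, and that of all genes was -0.05, -0.02, and -0.05. Ratios were above 1 in 31 of 47 members with miR-1, in 21 with miR-122, and in 15 with miR-124. Over all genes the counts were 5370 of 12514, 5803 of 12515, and 5457 of 12514. Intervals above 1 were found for 18 members with miR-1 (38.3%; background 15.5%), 7 with miR-122 (14.9%; background 13.3%), and 7 in the miR-124 library (14.9%; background 16.5%). Intervals below 1 were found for 6 with miR-1 (12.8%; background 24.6%), 8 with miR-122 (17.0%; background 16.4%), and 13 in the miR-124 library (27.7%; background 22.0%). Many members are deeply read, which narrows intervals. Among genes with at least 1000 reads, a limit chosen after seeing the data, the interval was above 1 with miR-1 for 16 of 39 members (41.0%), beside 24.0% of 6473 genes, and below 1 for 6 (background 27.1%). At that depth the counts above and below were 7 and 8 with miR-122 (background 19.2% and 20.2%) and 7 and 12 with miR-124 (background 23.9% and 26.4%). The 3 comparisons share the control RNA library, and differences between them were not tested. In bulk RNA a change in every cell and a larger change in some of the cells cannot be told apart.

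**Figure D2:**
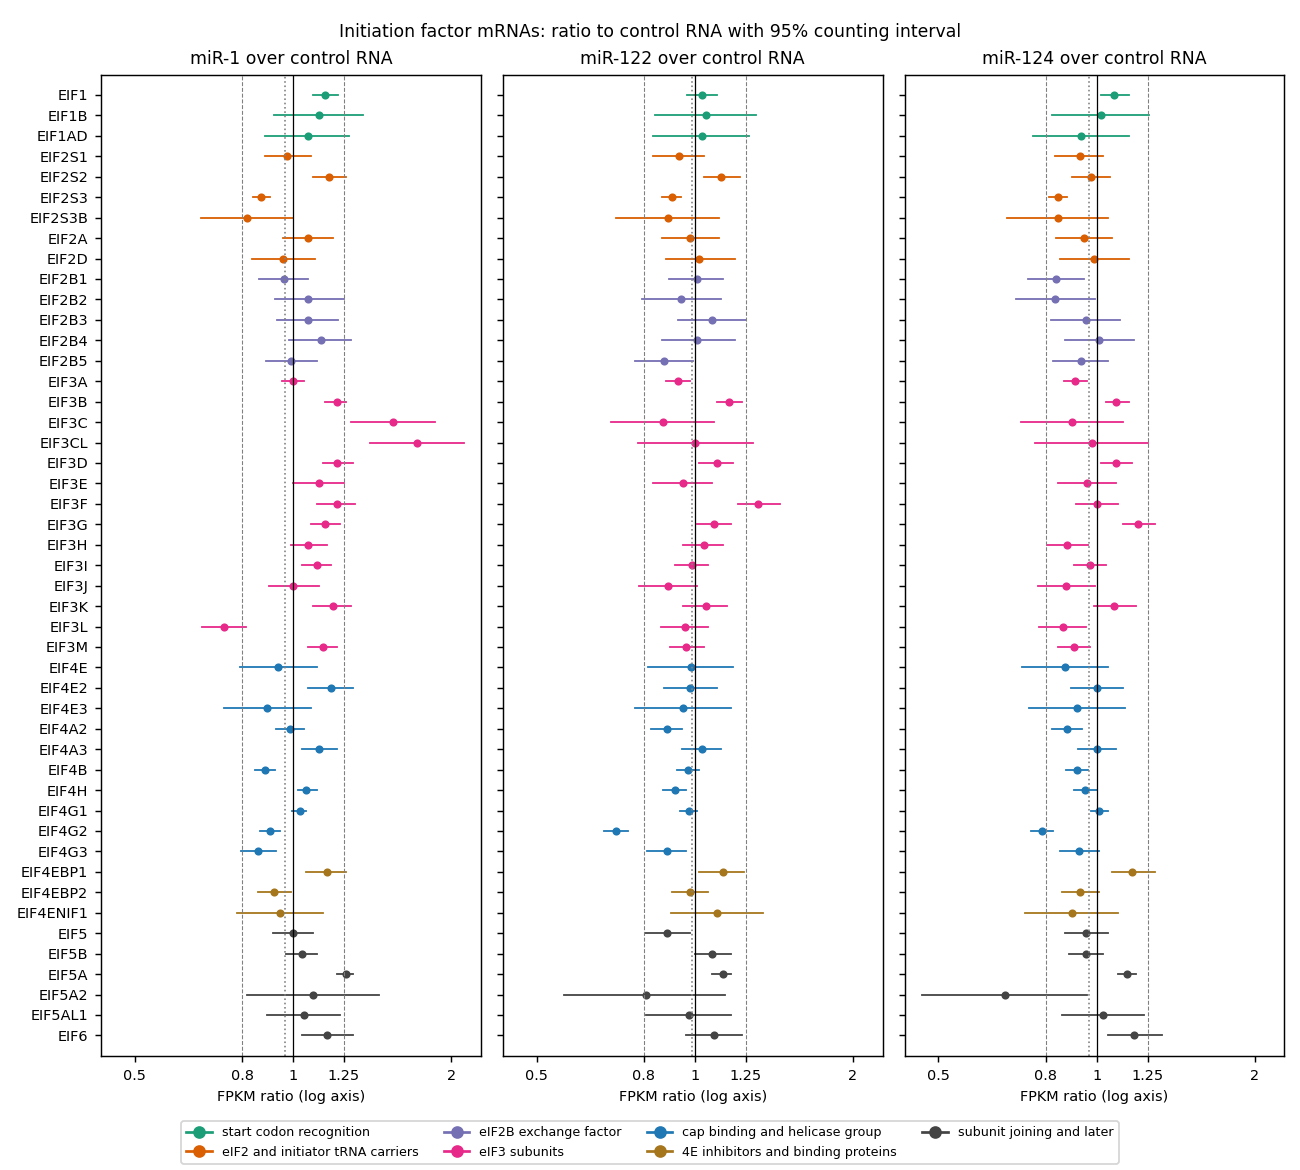
FPKM ratio of each of the 47 members to the control RNA library on a log axis, 1 panel per mimic, with points coloured by role and bars for the 95% counting interval. The solid line is a ratio of 1, dashed lines are 0.8 and its inverse, and the dotted line is the median of all genes. In the miR-1 panel the eIF3 points lie at or right of 1 except EIF3L at 0.738.

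The factors of start codon recognition showed small differences. EIF1, which keeps the scanning ribosome from starting at poor start codons, had an FPKM of 79.9 with the control RNA, 92.2 with miR-1, 82.3 with miR-122, and 86.3 in the miR-124 library. It was highest with miR-1, at a ratio of 1.15 (1.09–1.22), and the interval with miR-124 also left out 1, at 1.08 (1.02–1.15). Its paralog EIF1B had 174 recovered reads with the control RNA, 277 with miR-1, 162 with miR-122, and 173 in the miR-124 library, which gave FPKM ratios of 1.12, 1.05, and 1.02. EIF1AD, which carries an eIF1A-like domain, had an FPKM of 5.20, 5.54, 5.34, and 4.86 in the same order. For EIF1B and EIF1AD all 3 intervals held 1.

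The genes of eIF2 differed among themselves. EIF2S3 had an FPKM of 35.0 with the control RNA, 30.5 with miR-1, 31.6 with miR-122, and 29.5 in the miR-124 library. It was lower with every mimic, with ratios of 0.871 (0.840–0.903), 0.903 (0.868–0.940), and 0.843 (0.810–0.877), none of them past 0.8. EIF2S3B, a near-identical autosomal copy of EIF2S3, had 1.56, 1.27, 1.39, and 1.31, with ratios of 0.817, 0.889, and 0.843. Reads of this pair may be split between the copies. EIF2S2, the beta subunit, went the other way, with 7.67, 8.99, 8.61, and 7.48, and was at 1.17 (1.09–1.26) with miR-1 and 1.12 (1.04–1.22) with miR-122. EIF2S1, the alpha subunit that stress kinases phosphorylate, was between 0.928 and 0.976. EIF2D, which can deliver tRNA without GTP, had 1.35, 1.29, 1.38, and 1.33, and its intervals held 1, as did those of EIF2A. With miR-124 all 6 genes of this group were below 1, at 0.843 to 0.988, beside 7057 of 12514 of all genes. Only EIF2S3 had an interval below 1 there. With the trend described further on subtracted, 2 of the 6 were above 1.

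The 5 subunits of the exchange factor eIF2B stayed between 0.834 and 1.13. EIF2B1 had an FPKM of 6.61 with the control RNA, 6.34 with miR-1, 6.65 with miR-122, and 5.53 in the miR-124 library. EIF2B2 had 4.73, 5.07, 4.46, and 3.94. These regulatory subunits were lowest in the miR-124 library, at ratios of 0.837 (0.740–0.946) and 0.834 (0.701–0.992). EIF2B4, the third regulatory subunit, had 8.42, 9.49, 8.53, and 8.52. Of the catalytic subunits, EIF2B3 had 0.396, 0.422, 0.427, and 0.377, and EIF2B5 had 8.27, 8.20, 7.23, and 7.72. EIF2B5 was at 0.873 (0.769–0.991) with miR-122, and the intervals of EIF2B3 and EIF2B4 held 1 throughout.

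The eIF3 subunits gave 10 of the 18 intervals above 1 in the miR-1 library. Of 14 genes 13 were above 1 there, beside 5370 of 12514 of all genes. The median log2 ratio was 0.20, beside -0.05 for all genes. The 13 include the near-identical copies EIF3C and EIF3CL, as well as EIF3A and EIF3J, whose ratios round to 1.00. With miR-122, 7 were above and 7 below, with a median of -0.01. With miR-124, 5 were above and 9 below, with a median of -0.05. When the mean of the other 2 mimic libraries replaced the control RNA, 13 of 14 were above 1 with miR-1 and the median was 0.16, beside -0.02 for all genes. With the trend of the ratio over GC content, length, and reads subtracted, as described further on, 11 of 14 were above 1 with a median of 0.08, beside -0.05 for all genes.

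Within eIF3, EIF3B, a subunit with a WD40 propeller, had an FPKM of 16.1 with the control RNA, 19.5 with miR-1, 18.8 with miR-122, and 17.6 in the miR-124 library. EIF3D, which can itself bind the cap of some mRNAs, had 12.2, 14.8, 13.4, and 13.3. EIF3G, an RNA-binding subunit, had 42.0, 48.3, 45.7, and 50.4. These 3 genes were above 1 with every mimic and with intervals that left out 1, at 1.09 to 1.21. EIF3A, at 10.1, 10.1, 9.38, and 9.21, was at 1.00 (0.955–1.05) with miR-1 and lower with miR-122, at 0.928 (0.881–0.978), and miR-124, at 0.910 (0.865–0.958). EIF3E, EIF3I, EIF3K, and EIF3M were at 1.11 to 1.19 with miR-1, and EIF3H and EIF3J, the loosely bound subunit, were at 1.07 and 1.00.

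EIF3L was the exception with miR-1. This gene (ENSG00000100129, chr22:37848868-37889407, plus strand) encodes a subunit of the octameric core. It had an FPKM of 3.03 with the control RNA (814 reads), 2.24 with miR-1 (857 reads), 2.90 with miR-122 (693 reads), and 2.61 with miR-124 (685 reads). It was lowest with miR-1, at a ratio of 0.738 (0.670–0.813), lower with miR-124, at 0.862 (0.778–0.956), and at 0.958 (0.864–1.06) with miR-122. Against the mean of the other mimics it was at 0.811, which is not past 0.8. No 7mer or 8mer match of the miR-1 seed was found in its 3′ UTR, and 58.5% of its exon bases lie in an unnamed gene on the same strand that had 9 to 29 reads per library.

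EIF3C (ENSG00000184110, chr16:28688558-28735727, plus strand) and EIF3CL (ENSG00000205609, chr16:28379579-28403841, minus strand) were the highest members with miR-1. EIF3C had 0.566 with the control RNA, 0.877 with miR-1, 0.493 with miR-122, and 0.508 in the miR-124 library, from 177, 391, 137, and 155 reads. EIF3CL had 0.851, 1.46, 0.853, and 0.834, from 137, 336, 122, and 131 reads. The miR-1 library was above the other 3 in both genes, at ratios of 1.55 (1.29–1.86) and 1.72 (1.40–2.11). As copies of each other they are not separate evidence, and with the copy pairs of EIF3C, EIF2S3, and EIF5A all left out no member was high with miR-1.

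EIF3F (ENSG00000175390, chr11:7970251-8001862, plus strand), a subunit with an MPN domain, was the only high member with miR-122. It had 4.37 with the control RNA, 5.28 with miR-1, 5.78 with miR-122, and 4.37 in the miR-124 library, from 915, 1579, 1075, and 894 reads. The ratio was 1.32 (1.21–1.45) with miR-122, 1.21 (1.11–1.31) with miR-1, and 1.00 (0.912–1.10) with miR-124. Against the mean of the other 2 mimics it was at 1.20 with miR-122, under the high limit.

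In the cap-binding and helicase group, EIF4E (ENSG00000151247, chr4:98879276-98929133, minus strand) had an FPKM of 0.643 with the control RNA, 0.603 with miR-1, 0.631 with miR-122, and 0.559 in the miR-124 library. These stood for 251, 336, 219, and 213 reads. The ratio was 0.938 (0.794–1.11) with miR-1, 0.982 (0.815–1.18) with miR-122, and 0.869 (0.721–1.05) in the miR-124 library. All 3 intervals held 1, and in the reads assigned to EIF4E itself a difference was not detectable at this depth. Reads of its pseudogenes are given further on. The interval with miR-1 reaches down to 0.794, and a decrease of that size is therefore within counting error. The unadjusted point value was lower with miR-124 than with miR-1, whose seed match EIF4E carries, and the intervals overlapped. The 3′ UTR of EIF4E has 31.3% GC. Subtracting the trend described further on gave ratios of 0.997, 1.06, and 1.01 in the same order of mimics. The miR-124 value was then no longer below the miR-1 value. Matches of the miR-124 seed were not analysed, and whether either order is tied to a seed was not tested.

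The scaffold gene EIF4G2 (ENSG00000110321, chr11:10797050-10808940, minus strand) stood out in this group. Its protein, also called DAP5, lacks the eIF4E-binding part of eIF4G1 and serves cap-independent initiation. It had 47.5 with the control RNA, 42.9 with miR-1, 33.7 with miR-122, and 37.4 in the miR-124 library, from 3796, 4892, 2392, and 2917 reads. The control RNA library was the highest of the 4, and the ratios were 0.903 (0.865–0.943), 0.709 (0.673–0.746), and 0.787 (0.750–0.826). With the mean of the other 2 mimics in place of the control, EIF4G2 was at 0.839 with miR-122 and 0.977 with miR-124, neither past 0.8. No 7mer or 8mer match of the miR-1 or miR-122 seed was found in its 3′ UTR.

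EIF4G1, the main scaffold, had 43.2 with the control RNA, 44.5 with miR-1, 42.0 with miR-122, and 43.7 in the miR-124 library. Its ratios of 1.03 (0.996–1.06), 0.973 (0.938–1.01), and 1.01 (0.976–1.05) were among the narrowest measured here and all held 1. EIF4G3 had 0.484, 0.416, 0.428, and 0.448 and was at 0.859 (0.795–0.928) with miR-1 and 0.884 (0.810–0.964) with miR-122. EIF4E2, a cap-binding protein that represses translation with GIGYF2, had 2.82, 3.33, 2.77, and 2.82 and was at 1.18 (1.07–1.30) with miR-1. EIF4A3, the helicase of the exon junction complex, had 14.9, 16.7, 15.3, and 14.9 and was at 1.12 (1.04–1.21) with miR-1. The helicase cofactors EIF4B and EIF4H lay apart with miR-1, at 0.885 (0.846–0.926) and 1.06 (1.02–1.11). EIF4A2 was at 0.986 with miR-1, 0.884 (0.826–0.945) with miR-122, and 0.880 (0.824–0.940) in the miR-124 library. With miR-122, 9 of the 10 genes of this group were below 1, beside 6712 of 12515 of all genes. Of the 10 genes, 4 had an interval below 1 (background 16.4%).

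Of the proteins that hold eIF4E, EIF4EBP1, the classical mTOR-controlled inhibitor, had an FPKM of 4.14 with the control RNA, 4.78 with miR-1, 4.66 with miR-122, and 4.86 in the miR-124 library. It was higher with each mimic, at 1.16 (1.06–1.26), 1.13 (1.02–1.24), and 1.17 (1.07–1.29). Its 3′ UTR has 61.0% GC. With the trend described further on subtracted the ratios were 1.00, 0.995, and 0.921, so that none exceeded 1.00. EIF4EBP2, a second inhibitor of the same family, had 8.02, 7.39, 7.85, and 7.47 and was at 0.922 (0.857–0.992) with miR-1. EIF4ENIF1, which carries eIF4E to the nucleus and to P-bodies, had 0.516, 0.487, 0.569, and 0.463, and its intervals held 1.

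Among the factors of subunit joining and later steps, EIF5A (ENSG00000132507, chr17:7306999-7312463, plus strand) had an FPKM of 132 with the control RNA, 166 with miR-1, 149 with miR-122, and 151 in the miR-124 library, from 4788, 8583, 4792, and 5326 reads. The control RNA library was the lowest, and the ratios were 1.26 (1.21–1.30), 1.13 (1.08–1.17), and 1.14 (1.10–1.19). With miR-1 the ratio was just past the high limit, and against the mean of the other 2 mimics it was at 1.11. Its paralog EIF5A2 (ENSG00000163577, chr3:170888418-170908644, minus strand) had 0.603, 0.657, 0.486, and 0.404, from only 81, 126, 58, and 53 reads. It was at 1.09 (0.818–1.46) with miR-1, 0.806 (0.565–1.14) with miR-122, and 0.670 (0.465–0.959) in the miR-124 library. EIF5AL1, a near-copy of EIF5A, was at 0.973 to 1.05 with intervals that held 1.

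EIF5, the GTPase-activating protein of eIF2, had 12.1 with the control RNA, 12.1 with miR-1, 10.7 with miR-122, and 11.5 in the miR-124 library. EIF6, which keeps the large subunit from joining too early, had 13.1, 15.2, 14.3, and 15.4 and was at 1.16 (1.04–1.30) with miR-1 and 1.18 (1.05–1.33) with miR-124. EIF5B was at 1.04, 1.08, and 0.956, and its intervals reached or held 1.

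Members with a miR-1 seed match had lower ratios with miR-1 than members without one, by a margin like that over all genes, and none of them was called low. A 7mer or 8mer match of miR-1 was found in the 3′ UTRs of 9 of 47 members (19.1%), beside 27.1% of 11130 genes with an annotated 3′ UTR. The members were EIF1AD, EIF2S1, EIF2S3, EIF2B1, EIF4E, EIF4E3, EIF4G3, EIF5, and EIF6. Their median log2 ratio with miR-1 was -0.06, that of the members without a match was 0.11, and the corresponding medians of all genes were -0.18 and -0.01. Of the 9 members 7 were below 1, beside 9 of the 38 without a match, and over all genes 73.8% with and 52.2% without a match were. EIF4G3 was the lowest of the 9, at 0.859 (0.795–0.928), and its match lies in the 3′ UTR of a transcript other than the canonical one. EIF5, with the 8mer shown above, was at 0.999 (0.918–1.09), EIF2S3 at 0.871 (0.840–0.903), and EIF6 at 1.16 (1.04–1.30). EIF2S3 was also below 1 with the mimics that do not share the miR-1 seed, as given above. With miR-124 all of the 9 but EIF6 were below 1, as were 32 of all 47 members. Against the mean of the other 2 mimics, EIF4G3, EIF4E3, and EIF2S3 were at 0.949, 0.957, and 0.998 with miR-1. The rest of the 9 were at 1.01 to 1.09. Of all 47 members, 38 were above 1 in that comparison. Whether the split is tied to the miR-1 seed was not tested. EIF4E3, with 2 matches, was at 0.894 (0.740–1.08).

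Matches of miR-122 were found in 8 members (17.0%), beside 28.7% of 11131 genes, and the medians with miR-122 were -0.06 with and 0.00 without a match among members and -0.08 and 0.00 among all genes. Of the 8 members 7 were below 1, beside 19 of the 39 without a match (all genes 62.7% and 50.9%). The 8 were EIF2S1, EIF2A, EIF2B1, EIF3M, EIF4E3, EIF4G1, EIF4G3, and EIF5A2. EIF4G3, with the 8mer, was at 0.884 (0.810–0.964) with miR-122 and at 0.859 with miR-1. Its match and that of EIF4G1 lie in 3′ UTRs of transcripts other than the canonical ones. Neither EIF4G2 nor EIF3F, the members called with miR-122, is among the 8. Only the mRNA strand was searched, and matches of miR-124 were not analysed here.

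The ratio varied with the base composition and the length of the 3′ UTR, taken as the longest annotated one of each gene. Over the 47 members the correlation (Pearson's r, across genes, which are not independent and share 1 pair of libraries) between 3′ UTR GC content and the log2 ratio was 0.308 with miR-1, 0.438 with miR-122, and 0.671 in the miR-124 library. Over all genes it was 0.246, 0.344, and 0.614. With 3′ UTR length the correlation was -0.431, -0.240, and -0.371 over the members and -0.332, -0.280, and -0.355 over all genes, so that with miR-1 it was farther from 0 for length than for GC content. A cubic trend over 3′ UTR GC content, 3′ UTR length, reads, and gene span took 19.6%, 18.3%, and 45.8% of the variance over all genes. Its subtraction kept the median of all genes, so a gene on the trend stands near that median, slightly below 1. With the trend subtracted, the median log2 ratio of all genes was -0.05, -0.02, and -0.06. The median GC content was 44.2% for members and 43.7% for all genes. Both members that were low with miR-124 had AU-rich 3′ UTRs, with 33.8% GC in EIF4G2 and 32.2% in EIF5A2. With the trend subtracted their ratios were 0.818 and 0.778. Of the 7 members with an interval above 1 with miR-124, all but EIF1 had 52.3% GC or more, and after the subtraction EIF3B was at 0.865, EIF5A at 0.910, EIF4EBP1 at 0.921, EIF3D at 0.945, EIF3G at 0.950, and EIF6 at 0.956. EIF1 was at 1.03. The parts of composition, length, gene span, and reads in these values were not told apart, and none was tested beyond this subtraction.

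**Figure D3:**
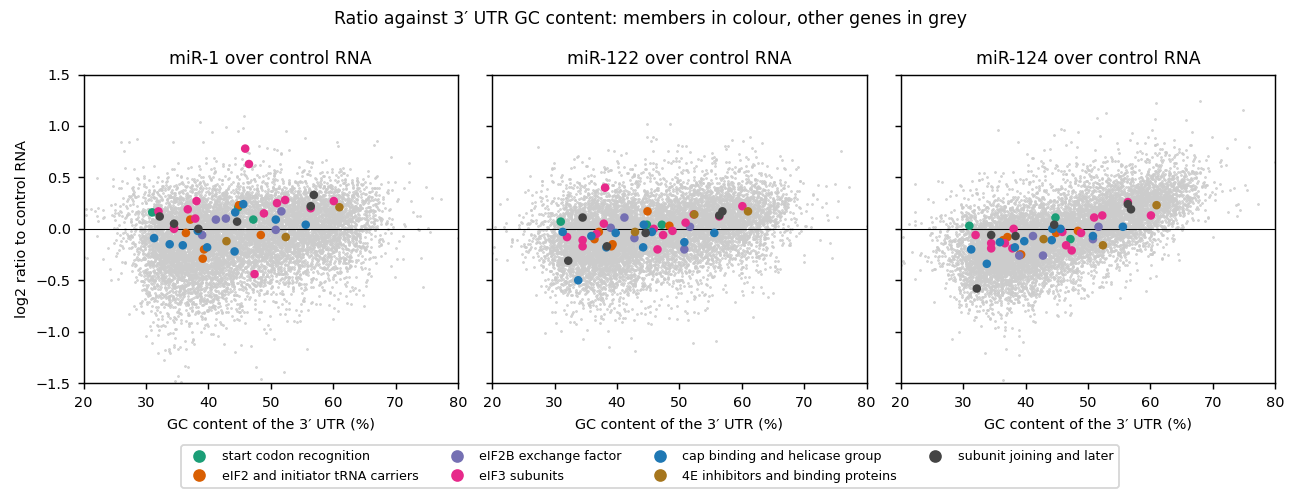
Log2 ratio to the control RNA library against 3′ UTR GC content in percent, 1 panel per mimic, with the 47 members coloured by role and other genes with at least 200 reads in grey; grey points beyond 1.5 in either direction are not drawn. The members lie along the cloud of all genes, which slopes upward most with miR-124, where r was 0.671 for members and 0.614 for all genes.

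Of the members called with miR-1 and miR-122, EIF5A alone fell inside the limits when the trend was subtracted. In those values EIF3L was at 0.695 with miR-1, EIF3C and EIF3CL at 1.43 and 1.57, EIF4G2 at 0.704 with miR-122, and EIF3F at 1.43. EIF5A, with 56.9% GC in its 3′ UTR, was at 1.05 with miR-1, beside 1.26 unadjusted. EIF3E and EIF3F came past the high limit with miR-1, at 1.29 and 1.28. For the subunits above 1 with every mimic, subtracting the trend left part of the ratios near or below the median of all genes. EIF3G was then at 0.961 with miR-1 and 0.947 with miR-122. With miR-124 EIF3B was at 0.865 and EIF3D at 0.945.

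Initiation factor genes have many processed pseudogenes, to which a read of the parent mRNA can be assigned. Pseudogenes named after EIF4E, nearly all EIF4EP2, had 171 reads with the control RNA, 186 with miR-1, 152 with miR-122, and 174 in the miR-124 library, which is 40.1% of the reads of EIF4E and its pseudogenes combined. They were lower with miR-1, at 0.762 (0.616–0.944), and at 1.00 with miR-122 and 1.04 (0.839–1.30) with miR-124, where the intervals held 1. Summed with its pseudogenes, EIF4E was at 0.867 with miR-1, 0.989 with miR-122, and 0.940 in the miR-124 library. No interval was computed for the sum, so the reading of EIF4E above holds only for the reads assigned to EIF4E itself. In the summed reads the miR-1 library was the lowest of the 4, whereas in EIF4E alone the miR-124 library was. Whether those reads came from EIF4E mRNA was not tested.

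Pseudogenes took 9.69% of the joint reads for EIF3F, 9.38% for EIF2S2, 4.94% for EIF3E, 4.54% for EIF4B, and 2.58% for EIF5A. EIF4B and its pseudogenes were both below 1 with miR-1, at 0.885 and 0.762 (0.616–0.943), and EIF2S2 and its pseudogenes were both above 1, at 1.17 and 1.38 (1.11–1.74). EIF3F and its pseudogenes were at 1.32 and 1.33 (0.992–1.79) with miR-122, but with miR-124 EIF3F was at 1.00 and its pseudogenes at 1.40 (1.05–1.87). EIF5A and its pseudogenes lay on either side of 1 with miR-1, at 1.26 and 0.911 (0.727–1.14). With the reads of the copies added, EIF3F was still at 1.32 with miR-122, but EIF5A came just under the high limit with miR-1, which left 2 high members there.

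Of 38 other genes of the pathway, 36 reached 200 reads; EEF1G and GSPT2 were listed at 0. In the miR-1 library 3 of the 36 were low (background 18.3%) and 1 was high (background 7.31%). In the miR-122 library 1 was low (background 12.3%) and 2 were high (background 7.87%). In the miR-124 library 6 were low (background 16.3%) and 3 were high (background 10.2%). PDCD4, an inhibitor of the eIF4A helicase, had an FPKM of 3.45 with the control RNA, 2.44 with miR-1, 3.34 with miR-122, and 2.92 in the miR-124 library, and was the lowest with miR-1, at 0.706 (0.632–0.789). EIF2AK2, the kinase PKR that phosphorylates eIF2 alpha, and RPS6KB1, an S6 kinase downstream of mTOR, were at 0.777 and 0.769 with miR-1. PPP1R15A, the phosphatase subunit that reverses the phosphorylation of eIF2 alpha, was higher with every mimic, at 1.27 (1.15–1.41), 1.23, and 1.24. With the trend subtracted PDCD4 stayed low with miR-1, at 0.718, while EIF2AK2 was at 0.860, RPS6KB1 at 0.839, and PPP1R15A at 1.12, 1.09, and 0.999 in the order of mimics above, none of them past a limit.

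NCBP1, of the nuclear cap-binding complex, was low with miR-122 at 0.729 (0.628–0.845) and with miR-124 at 0.770. With miR-124 the low genes also held the kinase gene EIF2AK4 (0.705), the helicase genes DHX29 (0.705) and DDX3X (0.782), PPP1R15B (0.793), and EIF1AX (0.771), the scanning factor gene that the rule leaves out. The high genes with miR-124 were EEF1A2, a tissue-restricted elongation factor gene, at 1.59 (1.51–1.68), RPS6KB2 at 1.27, and MKNK2, a kinase gene of eIF4E, at 1.26. With the trend subtracted, these 3 were at 1.20, 0.974, and 1.06. Of the low genes with miR-124, EIF2AK4 (0.777) and DHX29 (0.770) stayed past 0.8, while NCBP1 (0.858), DDX3X (0.861), PPP1R15B (0.863), and EIF1AX (0.869) did not. NCBP1 was at 0.777 with miR-122. Of the 8 elongation and release factors, 7 were at or above 1 with miR-1 and 8 with miR-122. Over all genes, 5370 of 12514 and 5803 of 12515 were above 1. With miR-124, 4 of the 8 were above and 4 below. There 3 had an interval below 1 (background 22.0%) and 3 above 1 (background 16.5%).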

How the data were processed

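Poly(A) RNA of 293T cells was sequenced, with 1 library per condition. Per the labels, CASAVA 1.8 and HISAT2 2.0.0 were used with GRCh38, and the authors deposited FPKM values for each Ensembl gene. The counting program, its strand setting, and the annotation are not given in the sources used here. Reads were recovered with the distance from start to end of the GENCODE release 44 gene where it made all 4 values whole within 0.001. Otherwise the smallest whole length that did so was used. If that length gave at least 200 reads over the 4 libraries, any small multiple that fitted and lay close to the gene span replaced it. The recovered reads allowed 95% Clopper-Pearson intervals, which cover counting error only. With 1 library per condition no test was run. Members, roles, and gene lists were chosen with earlier results of these data known. Values in all libraries, as FPKM or recovered reads, are printed for EIF4E, for the genes of the label check, for called members, and for the lowest and highest member of each role in each mimic library. Levels use the Ensembl canonical transcript. Seed matches (8mer, 7mer-m8, and 7mer-A1) were searched in annotated 3′ UTRs on the strand of the gene. The alternatives were pseudocounts of 1 and 0.1, another reference, centring, other filters and limits, the subtracted trend, and near-identical copies left out; a minimum of 1000 reads and the addition of pseudogene reads were chosen after seeing the data. Recovery and intervals were tested on simulated data. The work used Python 3.11.15 with pandas 2.3.3, numpy 2.4.6, and scipy 1.17.1, and figures were drawn in matplotlib 3.10.9. A further gene of the cell line's marker list is not reported here.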

Additional observations from a re-analysis of the deposited data

How the results depend on the processing

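No paired analysis was possible because there are no replicates to pair, and for the same reason no replicate could be left out. The median log2 ratio of the members and the ratio of EIF4E moved by less than their spread or interval under every alternative that gave a value; EIF4E had none with a mean FPKM of at least 1, which it does not reach. The counts of called members are small and moved more. With miR-1 the count of low members was 1, and it was 0 with a pseudocount of 1, 0 against the mean of the other 2 mimics, 0 beyond 1.5-fold, and 2 with only the threshold of 0.004, which lets in EIF4A1. The count of high members was 3, and it was 5 after centring, 0 without near-identical copies, and 1 with at least 1000 reads. With miR-122 the low count was 1, and it was 2 against the other mimics, 2 with the threshold of 0.004, and 0 beyond 1.5-fold, and the high count was 1, and 0 against the other mimics and beyond 1.5-fold. With miR-124 the low count was 2, and it was 4 against the other mimics and 0 beyond 1.5-fold. It was 1 with a pseudocount of 1, after centring, and with a mean FPKM of at least 1. It was also 1 with the trend subtracted and with at least 1000 reads. Against the other mimics the low members were EIF3C and EIF3CL with miR-122, and EIF3C, EIF3CL, EIF3F, and EIF5A2 with miR-124. EIF4G2 was not among them. That reference holds the miR-1 library, where EIF3C and EIF3CL were high. Why the counts moved was not tested. Of 141 single ratios, 41 left their counting interval when the trend was subtracted, 50 against the other mimics, 3 with a pseudocount of 1, and 2 after centring. Depth limits EIF5A2, EIF3CL, EIF1B, EIF3C, EIF2S3B, EIF1AD, EIF4E3, EIF4ENIF1, and EIF4E most, whose control RNA values rest on 81 to 251 reads.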
